A study of Mus musculus with 6 samples.

Results

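The constitutive proteasome genes were examined in interscapular BAT (iBAT) of obese and control mice. Members were all genes on the array whose symbol starts with *Psma*, *Psmb*, *Psmc*, or *Psmd* and a number, without *Psmb8*, *Psmb9*, and *Psmb10*, which encode the interferon-inducible catalytic subunits of the immunoproteasome. This gave 37 of the 20630 gene symbols on the array, 16 named for the core particle (8 *Psma* and 8 *Psmb* genes) and 21 named for the regulatory particle (7 *Psmc* and 14 *Psmd* genes). All 37 were among the 19006 genes tested, and each was represented by its brightest probe of 45 in all. The list was not trimmed, although the symbol rule also takes in genes that are not standard subunits. *Psma8* and *Psmb11* encode subunits used mainly in testis and thymus, *Psmd5*, *Psmd9*, and *Psmd10* encode chaperones of regulatory particle assembly, and *Psmc3ip* encodes a recombination factor that is not part of the proteasome. The other 31 are called standard subunits here.

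RNA of 3 control and 3 *ob/ob* iBAT samples was hybridized to 6 single-dye Agilent arrays. *Ob/ob* mice lack functional leptin and become obese. All mice were labeled as males on a C57BL/6 background, 16 weeks of age, and no treatment was named for either group. The labels give the first group's genotype only as control. Whether a sample is 1 mouse or a pool of mice is not stated. The p values therefore measure only the spread between these 6 samples, which may be partly technical.

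The proteasome is the barrel-shaped protease that degrades ubiquitin-tagged proteins. Its core particle stacks rings of alpha subunits, which gate the channel, around rings of beta subunits, of which *Psmb5*, *Psmb6*, and *Psmb7* encode the catalytic ones. The regulatory particle caps the core, and there 6 ATPases encoded by *Psmc1* to *Psmc6* unfold substrates while the non-ATPase subunits bind ubiquitin and remove it. In brown fat, proteasome function is known to depend on the transcription factor encoded by *Nfe2l1*, which raises proteasome genes together, and to be needed for heat production in the cold.

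Because co-regulation through shared promoter elements is a known property of these genes, upstream sequences of the members on which the results turn are shown. A RefSeq promoter entry (assembly GRCm38.p6) was given for 30 of the 37 genes, with 32 promoters. The 7 genes without an entry were *Psma8*, *Psmb1*, *Psmb2*, *Psmb7*, *Psmc3*, *Psmd3*, and *Psmd7*. The 250 bases before the transcription start of the member with the lowest p (*Psmb3*), of the catalytic subunits with an entry (*Psmb5* and *Psmb6*), of the members with the largest differences of the regulatory particle (*Psmc6* and *Psmd4*), and of *Psmd10*, the other member whose groups did not overlap, read as follows. Capitals mark matches, on either strand, to the core of the antioxidant response element TGACNNNGC, to the CCAAT box, or to the ETS core CCGGAAG.
*Psmb3*, chr11:97703184-97703433, plus strand: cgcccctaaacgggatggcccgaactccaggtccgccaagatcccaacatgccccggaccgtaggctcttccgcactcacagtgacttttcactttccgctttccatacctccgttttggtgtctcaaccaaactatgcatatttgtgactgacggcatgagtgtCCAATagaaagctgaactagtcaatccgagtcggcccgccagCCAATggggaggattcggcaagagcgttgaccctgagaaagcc
*Psmb5*, chr14:54617996-54618245, minus strand: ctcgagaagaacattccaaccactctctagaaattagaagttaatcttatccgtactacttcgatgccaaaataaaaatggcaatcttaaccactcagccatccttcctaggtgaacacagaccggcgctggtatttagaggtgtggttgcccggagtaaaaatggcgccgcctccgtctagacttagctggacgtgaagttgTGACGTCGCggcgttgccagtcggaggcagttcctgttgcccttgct
*Psmb6*, chr11:70525107-70525356, plus strand: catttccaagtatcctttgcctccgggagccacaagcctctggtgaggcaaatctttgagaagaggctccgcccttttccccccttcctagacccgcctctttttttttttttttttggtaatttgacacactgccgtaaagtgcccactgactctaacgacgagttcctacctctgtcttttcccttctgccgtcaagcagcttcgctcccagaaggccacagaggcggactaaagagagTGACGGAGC
*Psmc6*, chr14:45329574-45329823, plus strand: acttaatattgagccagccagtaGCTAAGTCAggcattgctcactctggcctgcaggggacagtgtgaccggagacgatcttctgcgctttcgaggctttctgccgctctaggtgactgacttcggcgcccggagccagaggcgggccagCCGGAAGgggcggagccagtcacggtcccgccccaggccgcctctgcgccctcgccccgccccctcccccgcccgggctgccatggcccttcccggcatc
*Psmd4*, chr3:95042615-95042864, minus strand: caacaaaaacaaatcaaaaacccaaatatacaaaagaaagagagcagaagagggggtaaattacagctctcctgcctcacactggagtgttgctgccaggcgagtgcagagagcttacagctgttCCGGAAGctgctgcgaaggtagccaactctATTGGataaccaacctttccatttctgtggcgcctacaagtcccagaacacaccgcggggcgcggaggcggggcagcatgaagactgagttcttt
*Psmd10*, chrX:140956712-140956961, minus strand: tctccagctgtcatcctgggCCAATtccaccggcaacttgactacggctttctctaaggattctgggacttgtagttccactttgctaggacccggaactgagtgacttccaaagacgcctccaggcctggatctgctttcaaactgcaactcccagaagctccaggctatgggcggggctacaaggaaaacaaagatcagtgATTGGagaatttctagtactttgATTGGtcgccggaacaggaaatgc
The antioxidant response element core is the kind of sequence to which factors of the *Nfe2l1* family bind. It was found in 5 of the 32 promoters (15.6%), those of *Psmb5*, *Psmb6*, *Psmc6*, *Psmd9*, and *Psmd12*, compared with 10.2% of all 32851 promoters in the table. In *Psmb6* the match began 9 bases before the start, and in *Psmb5* it began 47 bases before it. The CCAAT box, the binding sequence of NF-Y, was found in 13 promoters (40.6%, all promoters 33.8%), including *Psmb3* at 85 and 43 bases and *Psmd10* at 230, 47, and 24 bases before the start. The ETS core was found in 11 promoters of 10 genes (34.4%, all promoters 6.91%), including *Psmc6* at 100 and *Psmd4* at 125 bases before the start. Overlapping matches were counted for each motif separately. These matches describe letters and were not tested as binding sites.

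The arrays did not group by genotype. Over all tested probes, control 1 and control 2 had a Spearman correlation of 0.964, and *ob/ob* 1 and *ob/ob* 2 of 0.967. Control 3 correlated at 0.915 with *ob/ob* 1 and 0.944 with *ob/ob* 2, but at 0.642 with control 1 and 0.730 with control 2. *Ob/ob* 3 correlated at 0.858 with control 1, but at 0.573 with *ob/ob* 1 and at 0.488 with *ob/ob* 2. Whether the labels of control 3 and *ob/ob* 3 were exchanged was not tested, and an exchange would alter every difference between groups given here. Both arrays were kept under their labels, and results are also given without them. *Ucp1*, the uncoupling protein that defines brown adipocytes, was detected on every array, at log2 signals of 13.05, 11.72, and 9.48 across the controls and 8.93, 9.12, and 10.03 across the *ob/ob* arrays. Here and below, the values of a group are listed in the order of its arrays 1, 2, and 3. *Lep*, which carries the *ob* mutation, was at 5.74, 4.57, and 5.30 across controls and 6.68, 5.83, and 9.33 in *ob/ob* iBAT. Every *ob/ob* array thus lay above every control array for *Lep*, a separation seen for 8.00% of all genes tested in either direction. The mutation does not delete the gene, and whether its level bears on the labels was not tested.

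Between genotypes, the proteasome genes as a whole showed no shared direction. The log2 fold change, *ob/ob* minus control, was below 0 for 18 of the 37 genes (48.6%) and above 0 for 19, whereas it was below 0 for 57.2% of all genes tested. The median log2 fold change of the members was 0.00917, compared with −0.0859 for all genes tested, and the values ran from −1.35 (*Psmb3*) to 0.88 (*Psmc6*). In the limma test, 1 member, *Psmb3*, had an unadjusted p under 0.05, compared with 3.73% of all genes (709 of 19006). None of the members passed an adjusted p under 0.05 with limma, nor did any of all genes tested (0%), and all members had an adjusted p of 1.0. With the methods' t-test, the counts were also 1 member unadjusted and 0 adjusted. The groups did not overlap for 2 members, *Psmb3* (lower) and *Psmd10* (higher), compared with 8.00% of all genes. As RNA came from whole tissue, fewer cells of a type and less RNA per cell cannot be told apart.

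**Figure D1:**
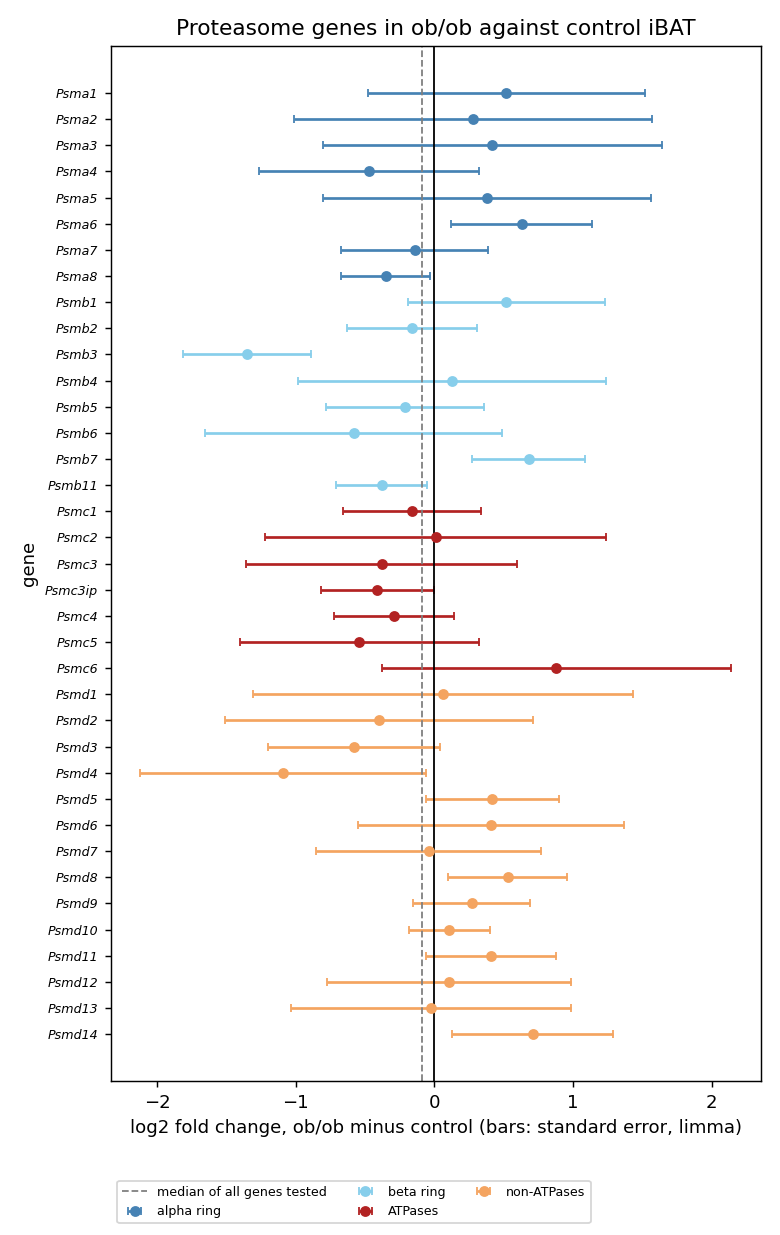
Log2 fold change of each of the 37 proteasome genes, *ob/ob* minus control (x axis), with the limma standard error as bars, 3 arrays in each group. Colors mark the alpha ring, beta ring, ATPases (the *Psmc* symbols, *Psmc3ip* included), and non-ATPases (the *Psmd* symbols, chaperones included), and the dashed line is the median of all genes tested (−0.0859). The points scatter on both sides of 0, with *Psmb3* at −1.35 farthest to the left and *Psmc6* at 0.88 farthest to the right.

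Among the 8 alpha ring genes, 3 had a log2 fold change below 0 and 5 above it, with a median of 0.33, and none had an unadjusted p under 0.05. *Psma6* had the largest positive value. Its log2 signal was 7.79, 7.77, and 6.92 across controls and 7.77, 7.60, and 9.01 across *ob/ob* arrays, a log2 fold change of 0.63 (SE 0.51, limma p = 0.255, exact permutation p = 0.50). Only *ob/ob* 3 lay above the controls, and the other *ob/ob* arrays lay within their range. *Psma4* had the lowest value of the ring. Its signal was 8.52, 8.40, and 6.68 across controls and 7.08, 6.35, and 8.77 across *ob/ob* arrays (log2 fold change −0.47, SE 0.79). The groups overlapped widely, with control 3 beside the lower *ob/ob* arrays and *ob/ob* 3 above every control. A second *Psma4* probe hardly varied, from 6.68 to 7.11, and gave 0.07 (SE 0.31), so the direction of *Psma4* depends on the probe. *Psma1* followed *Psma6* with 0.52 (SE 1.0). *Psma8*, the testis form, had −0.35 (SE 0.32), and its probe was detected on all 3 control arrays but on 1 *ob/ob* array, whereas every other member was detected on all 6 arrays. The remaining alpha ring genes, *Psma2*, *Psma3*, *Psma5*, and *Psma7*, lay between −0.14 and 0.42.

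Among the 8 beta ring genes, 5 had a log2 fold change below 0, and the median was −0.18. *Psmb3* encodes a noncatalytic beta subunit. Its log2 signal was 14.04, 14.15, and 13.90 across controls and 13.19, 13.07, and 11.77 across *ob/ob* arrays. Every *ob/ob* array lay below every control array, and *ob/ob* 3 was the lowest. The means were 14.03 ± 0.12 and 12.68 ± 0.79 (SD, n = 3 arrays in each group), so that the *ob/ob* signal was 39.1% of the control signal on the linear scale. The log2 fold change was −1.35 (SE 0.46), with an unadjusted limma p of 0.025 and an adjusted p of 1.0. The exact permutation test, two-sided, gave p = 0.10, the smallest value that 3 arrays against 3 allow. Unlike most members, *Psmb3* lay near the other controls on control 3 and was lowest on *ob/ob* 3. The unadjusted p was 0.0661 without control 1 and 0.0785 without control 2, and 0.113 with scaling to the 75th percentile. With the scan as a block, a fit that compares only *ob/ob* 1 with control 1 and control 3, the log2 fold change was −0.78 (SE 1.16).

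The catalytic subunits did not share a direction. *Psmb5*, which carries the chymotrypsin-like activity, had signals of 11.41, 11.08, and 10.06 across controls and 10.21, 10.14, and 11.58 across *ob/ob* arrays (log2 fold change −0.21, SE 0.57, limma p = 0.731, exact permutation p = 1.0). *Psmb6*, which carries the caspase-like activity, had 11.89, 11.62, and 8.64 across controls and 9.67, 9.08, and 11.67 across *ob/ob* arrays (−0.58, SE 1.07, limma p = 0.610, exact permutation p = 0.90). *Psmb7*, which carries the trypsin-like activity, had 6.48, 5.89, and 5.98 across controls and 6.63, 6.34, and 7.40 across *ob/ob* arrays (0.68, SE 0.41, limma p = 0.145, exact permutation p = 0.20). For *Psmb5* and *Psmb6*, control 3 lay with *ob/ob* 1 and *ob/ob* 2, and *ob/ob* 3 with control 1 and control 2. For *Psmb7*, *ob/ob* 3 was the highest array, and *ob/ob* 2 lay between control 1 and the other controls. A second *Psmb5* probe gave 0.07 (SE 0.72), the opposite sign to the brightest one. *Psmb1*, a noncatalytic subunit, had 0.52 (SE 0.71). *Psmb2*, also noncatalytic, had 14.88, 14.88, and 15.03 across controls and 14.97, 15.45, and 13.88 across *ob/ob* arrays (−0.16, SE 0.47), with *ob/ob* 3 as its lowest array. *Psmb4* had 0.13 (SE 1.11), and *Psmb11*, the thymus form, −0.38 (SE 0.33).

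**Figure D2:**
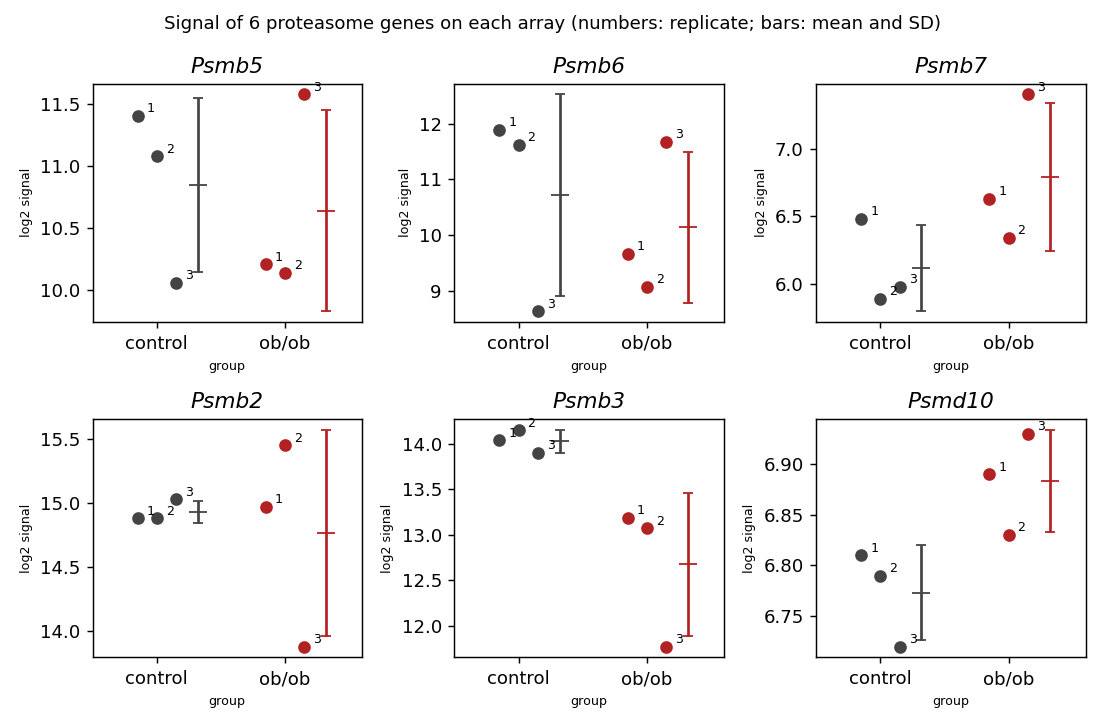
Log2 signal after quantile normalization (y axis, scaled separately for each gene) of *Psmb5*, *Psmb6*, *Psmb7*, *Psmb2*, *Psmb3*, and *Psmd10* on each array of the control and *ob/ob* groups. Points are arrays, numbered by replicate, and bars are the mean and SD of 3 arrays. Control 3 sits low for *Psmb5* and *Psmb6* (10.06 and 8.64), *ob/ob* 3 sits low for *Psmb2* and *Psmb3* (13.88 and 11.77), and the groups separate for *Psmb3* and *Psmd10*, the latter over a range of 0.21.

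Of the 7 *Psmc* genes, 5 had a log2 fold change below 0, with a median of −0.29, and none had an unadjusted p under 0.05. *Psmc6* had the largest positive value of all members and also the largest range. Its log2 signal was 8.37, 8.02, and 4.97 across controls and 7.38, 6.49, and 10.15 across *ob/ob* arrays (0.88, SE 1.26, limma p = 0.507, exact permutation p = 0.60). It was lowest on control 3 and highest on *ob/ob* 3, a span of 5.18 log2 units. *Psmc5* had the lowest value of the class, with signals of 10.27, 10.16, and 7.75 across controls and 8.51, 8.03, and 10.02 across *ob/ob* arrays (−0.54, SE 0.86, limma p = 0.550, exact permutation p = 0.80). Again control 3 was the lowest array and *ob/ob* 3 lay near control 1 and control 2. *Psmc2* had 0.01 (SE 1.23), and its second probe had 0.18 (SE 1.20). *Psmc1* had −0.16 (SE 0.50), whereas its second probe had 0.18 (SE 0.55), the opposite sign. *Psmc3* and *Psmc4* had −0.38 and −0.29. *Psmc3ip*, the recombination factor, had −0.41 (SE 0.41).

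Of the 14 *Psmd* genes, 5 had a log2 fold change below 0 and 9 above it, with a median of 0.11. *Psmd14* encodes the deubiquitinase that cuts ubiquitin chains off substrates. Its signal was 6.03, 5.76, and 6.52 across controls and 6.63, 5.90, and 7.93 across *ob/ob* arrays (0.71, SE 0.58, limma p = 0.262, exact permutation p = 0.40), the largest positive value of the class. *Ob/ob* 3 was the highest array, and *ob/ob* 2 lay within the control range. *Psmd4*, a ubiquitin receptor, had 11.34, 11.22, and 8.05 across controls and 8.89, 8.17, and 10.26 across *ob/ob* arrays (−1.09, SE 1.03, limma p = 0.325, exact permutation p = 0.40). Control 1 and control 2 lay above every *ob/ob* array, and control 3 lay below all of them. *Psmd8* had 7.13, 6.98, and 7.99 across controls and 7.76, 8.39, and 7.53 across *ob/ob* arrays (0.53, SE 0.43), with control 3 above *ob/ob* 1 and *ob/ob* 3. *Psmd3*, which like *Psmd8* encodes a subunit of the lid, had −0.58 (SE 0.62).

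*Psmd10*, which encodes the assembly chaperone gankyrin, was the other member without overlap. Its signal was 6.81, 6.79, and 6.72 across controls and 6.89, 6.83, and 6.93 across *ob/ob* arrays. The *ob/ob* arrays were all higher, but by a log2 fold change of 0.11 (SE 0.29, limma p = 0.716, exact permutation p = 0.10), and the whole span of 0.21 was the narrowest of the members. Its second, dimmer probe, detected on 4 arrays, had 5.40, 4.35, and 1.88 across controls and 4.76, 3.45, and 7.60 across *ob/ob* arrays (1.39, SE 1.31), where the groups overlapped. The other chaperones, *Psmd5* and *Psmd9*, had 0.42 (SE 0.48) and 0.27 (SE 0.42). The remaining *Psmd* genes lay between −0.40 (*Psmd2*) and 0.41 (*Psmd6* and *Psmd11*). In all, 8 genes had a second probe, and its sign was opposite to that of the brightest probe for 3 (*Psma4*, *Psmb5*, and *Psmc1*). The largest gap between the probes of a gene was 1.28, for *Psmd10*.

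Most members shared an order over the arrays. For 26 of 37 genes (70.3%), the 3 lowest arrays were control 3, *ob/ob* 1, and *ob/ob* 2, compared with 29.8% of all genes tested. The reverse order, with these arrays as the 3 highest, was seen for 2 members, *Psmb2* and *Psmd8*, compared with 31.7% of all genes. *Ob/ob* 3 was the highest array for 26 members (70.3%, all genes 30.2%), and control 3 was the lowest for 24 (64.9%, all genes 19.2%). Relative to each gene's own mean over the 6 arrays, the median of the members lay at 0.66, 0.44, and −0.96 (log2) for the controls and at −0.44, −0.69, and 1.14 for the *ob/ob* arrays. Over all genes tested, the same medians were −0.0531, 0.0603, and 0.17 across controls and −0.00237, 0.12, and −0.21 across *ob/ob* arrays. Of the 37 members, 31 lay above their own mean on control 1, 31 on control 2, and 31 on *ob/ob* 3, against 8, 5, and 7 on control 3, *ob/ob* 1, and *ob/ob* 2.

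The order was seen for 6 of 8 alpha ring genes, 4 of 8 beta ring genes, 6 of 7 *Psmc* genes, and 10 of 14 *Psmd* genes, and the classes were not compared by a test. The 11 members with another order were *Psma6*, *Psma8*, *Psmb2*, *Psmb3*, *Psmb7*, *Psmb11*, *Psmc3ip*, *Psmd8*, *Psmd9*, *Psmd10*, and *Psmd14*. They include *Psma8*, *Psmb11*, and *Psmc3ip*, which are not standard subunits, and 2 of the 3 chaperones. Among the 31 standard subunits, 25 (80.6%) had this order. The span over the 6 arrays had a median of 2.42 log2 units among the members, compared with 1.80 among all genes, and ran from 0.21 (*Psmd10*) to 5.18 (*Psmc6*). The median SD within a group was 0.88 among controls and 1.04 among *ob/ob* arrays for the members, against 0.52 and 0.77 for all genes. These shares describe 6 arrays and carry no test.

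**Figure D3:**
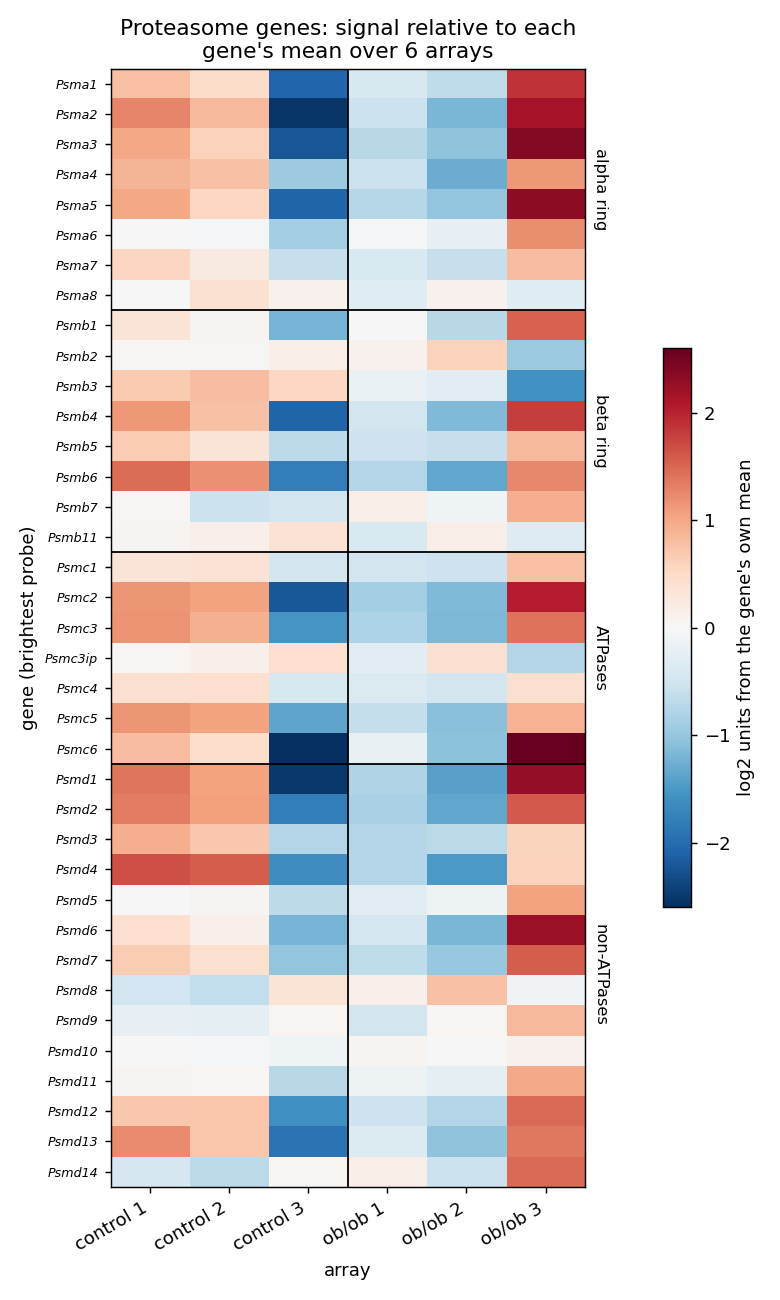
Signal of the 37 proteasome genes (rows, grouped into alpha ring, beta ring, ATPases, and non-ATPases) on the 6 arrays (columns), as log2 units from each gene's own mean over the arrays. Red is above and blue below that mean. Most rows are red on control 1, control 2, and *ob/ob* 3 and blue on control 3, *ob/ob* 1, and *ob/ob* 2, an order seen for 26 of 37 genes, whereas *Psmb2*, *Psmb3*, and *Psmd8* show other orders.

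Marker genes of skeletal muscle, erythrocytes, endothelial cells, and brown adipocytes were mostly low on the same arrays as the members. Control 3, *ob/ob* 1, and *ob/ob* 2 were the 3 lowest arrays for 9 of 10 skeletal muscle, 3 of 4 erythrocyte, 5 of 6 endothelial, and 6 of 9 brown adipocyte markers, and for 1 of 7 macrophage, 1 of 7 lymphocyte, and 0 of 5 white adipocyte markers. Over all genes tested, the share was 29.8%. The summed signal of 10 skeletal muscle markers, of which 10 were tested and 8 were detected on all arrays, was 44013, 61764, and 4650 across controls and 751, 718, and 136607 across *ob/ob* arrays. That of 4 erythrocyte markers, of which 3 were tested, was 12068, 2794, and 634 across controls and 421, 296, and 31901 across *ob/ob* arrays. No muscle or erythrocyte marker was listed at 0. Both sums were high on control 1, control 2, and *ob/ob* 3 and low on the other arrays, like the proteasome genes, and their part in the order of the members was not tested. The summed signal of 9 brown adipocyte markers, of which 7 were detected on all arrays, was 90908, 55289, and 6097 across controls and 4493, 4059, and 12333 across *ob/ob* arrays. It was therefore also low on control 3 but did not exceed the control 1 and control 2 sums on *ob/ob* 3. The 6 endothelial markers had median deviations from their own means of 1.20, 0.84, and −0.56 (log2) across controls and −0.97, −1.09, and 0.55 across *ob/ob* arrays. *Cdh5*, *Kdr*, *Tek*, *Tie1*, and *Emcn* had the order of most members. *Pecam1*, which made up most of the endothelial sum on control 3, *ob/ob* 1, and *ob/ob* 2, had the reverse one, and the sum ran from 6455 to 9912 in controls and from 3636 to 6342 in *ob/ob* iBAT. The macrophage sum (7 of 8 markers tested) ran from 4867 to 15462 and from 3179 to 5403. *Itgam* had the highest signal of these 7 markers on every array and weighed most in the sum. Of the 7, 3 had a log2 fold change below 0, and the median was 0.23. The lymphocyte sum (7 markers) ran from 812 to 1008 and from 500 to 880, and that of white adipocytes (5 of 6 tested) from 893 to 2030 and from 795 to 2728. The part of these cell types was not tested either.

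The core and the regulatory particle were compared next. The median log2 fold change was −0.00478 for the 16 core genes, of which 8 were below 0, and 0.00917 for the 21 regulatory genes, of which 10 were below 0. The difference between these medians was −0.01. On single arrays, the median core gene lay 0.67, 0.44, and −0.92 log2 units from its own mean for the controls and −0.41, −0.64, and 1.17 for the *ob/ob* arrays. For the regulatory genes the values were 0.66, 0.44, and −1.02 across controls and −0.48, −0.77, and 1.05 across *ob/ob* arrays. Both particles were thus high on the same arrays and low on the same arrays. Core minus regulatory was 0.01, 0.00, and 0.09 in the controls (0.04 ± 0.05, SD, n = 3) and 0.07, 0.13, and 0.12 across *ob/ob* arrays (0.10 ± 0.03), and the groups overlapped. The spread of that difference between arrays of a group, 0.04, was small beside that of each particle, 0.92 for the core and 0.94 for the regulatory particle. With the 31 standard subunits alone, a selection made after the data were seen, the medians were 0.21 for 14 core genes and −0.0233 for 17 regulatory genes.

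**Figure D4:**
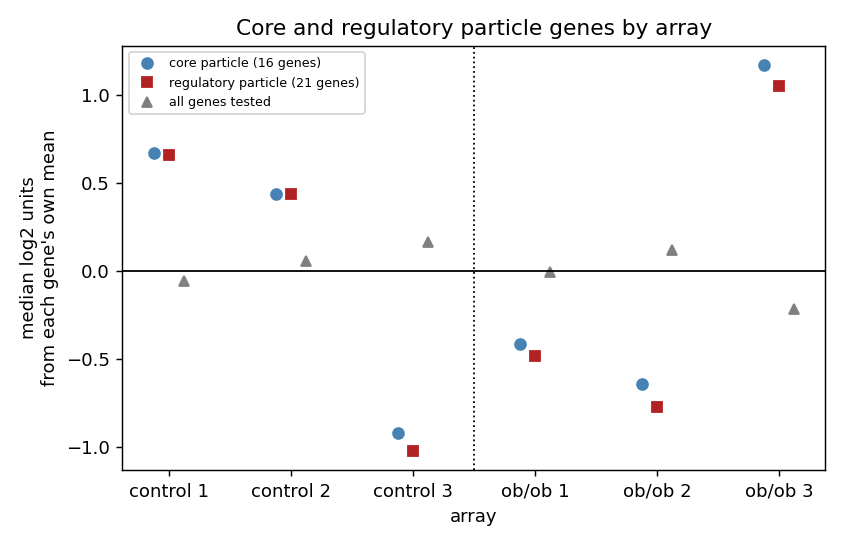
Median deviation of the 16 core particle genes (circles), the 21 regulatory particle genes (squares), and all genes tested (triangles) from each gene's own mean, in log2 units (y axis), on each of the 6 arrays (x axis). Core and regulatory points lie within 0.13 of each other on every array, from about −1 on control 3 to above 1 on *ob/ob* 3, whereas all genes stay between −0.21 and 0.17.

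The result depended on the arrays that stood apart. Without control 3 and *ob/ob* 3, with 2 arrays left in each group, the median log2 fold change of the members was −1.1 (all genes 0.07), and 31 of 37 were lower in *ob/ob* iBAT. In that limma fit, 24 members had an adjusted p under 0.05 and were lower, compared with 27.0% of all genes, and 1 was higher (*Psmd8*), compared with 22.3%. In either direction, 25 members passed the unadjusted p and 25 the adjusted p, compared with 55.1% and 49.3% of all genes, and 30 did not overlap between groups, compared with 74.8%. The lower members included 10 of 16 core genes (median −1.02) and 14 of 21 regulatory genes (median −1.26). *Psmd4* was the most extreme with −2.75 (SE 0.29, limma adjusted p = 0.000161), followed by *Psmb6* with −2.38 (SE 0.27, adjusted p = 0.000262) and *Psmd1*, a scaffold subunit of the regulatory particle, with −2.31 (SE 0.29, adjusted p = 0.000371). *Psmb3* had −0.96 (SE 0.23, adjusted p = 0.00878). These arrays were left out because of how they resembled the other group, so the fit is no independent evidence of a difference between genotypes. Without control 3 alone, the median was −0.56, and 28 members were lower. Without *ob/ob* 3 alone, it was −0.60, and 30 were lower. Leaving out any one of the other arrays gave medians of 0.22 to 0.31.

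Of the 4 scans, the one with control 1, control 3, and *ob/ob* 1 was the only one that held both groups. Within it, *ob/ob* 1 lay between the controls for 29 of 37 members, below both for 5, and above both for 3. The other 3 scans held 1 array each, so the fit with the scan as a block rests on 1 *ob/ob* array against 2 control arrays with 1 residual degree of freedom, and a lack of calls in it says nothing about the genotypes. In that fit, the median log2 fold change of the members was −0.22 (all genes −0.0549), with −0.15 for the core and −0.34 for the regulatory particle, 24 members were lower, and none had an unadjusted p under 0.05.

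**Figure D5:**
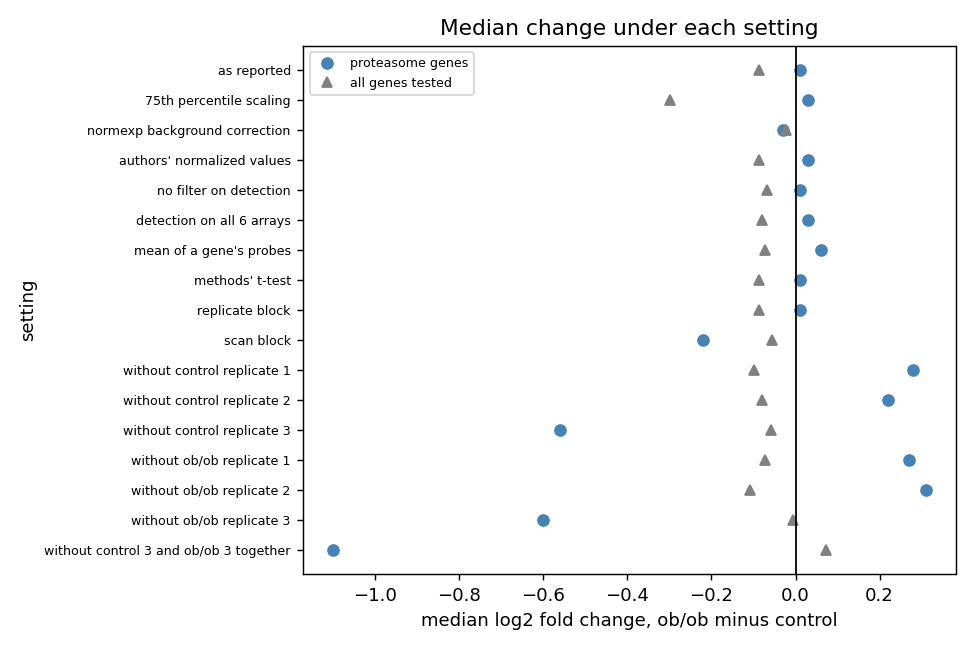
Median log2 fold change, *ob/ob* minus control (x axis), of the proteasome genes (circles) and of all genes tested (triangles) under each normalization, filter, test, block, and choice of arrays (y axis). The proteasome median lies between −0.03 and 0.06 under changes of normalization, filter, probe rule, and test, is −0.22 with the scan as a block, and moves to −0.56, −0.60, and −1.1 when control 3, *ob/ob* 3, or both are left out, while that of all genes stays between −0.30 and 0.07.

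Genes that work with the proteasome were described by lists. All 3 immunoproteasome subunits had values below 0 and none had an unadjusted p under 0.05. *Psmb8* had −0.28 (SE 0.83), *Psmb9* −0.53 (SE 0.42), and *Psmb10* −0.50 (SE 0.59). For each the 3 lowest arrays were control 3, *ob/ob* 1, and *ob/ob* 2 (all genes 29.8%). Of the 5 activator and inhibitor genes, 3 were below 0, and none had an unadjusted p under 0.05. *Psme1*, a subunit of the interferon-inducible activator, had 9.69, 10.22, and 10.16 across controls and 9.41, 9.38, and 8.59 across *ob/ob* arrays (−0.90, SE 0.38, limma p = 0.0544, exact permutation p = 0.10, adjusted p = 1.0). It was the 1 gene of these 5 whose groups did not overlap, compared with 8.00% of all genes in either direction. *Psme3*, the nuclear activator, had 9.86, 9.08, and 13.10 across controls and 13.62, 13.58, and 12.01 across *ob/ob* arrays (2.39, SE 1.1, limma p = 0.0709, exact permutation p = 0.20). Its signal was high on control 3 and on every *ob/ob* array. Of the 5 assembly chaperones, 4 were below 0 with a median of −0.00472, from −0.32 (*Psmg2*, SE 0.35) to 0.11 (*Psmg3*, SE 0.47). All 5 had the order over the arrays seen for most subunits (all genes 29.8%). Of the 7 receptors and deubiquitinases bound to the proteasome, 5 were below 0, from −0.65 (*Adrm1*, a ubiquitin receptor, SE 1.38) to 0.55 (*Uchl5*, a deubiquitinase, SE 0.60).

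*Nfe2l1*, the transcription factor that raises proteasome genes, had 6.25, 6.56, and 6.61 across controls and 6.24, 6.29, and 5.91 across *ob/ob* arrays (−0.33, SE 0.31, limma p = 0.335, exact permutation p = 0.20). The groups overlapped by control 1, and control 3 was its highest and *ob/ob* 3 its lowest array, unlike most subunits. Of the 7 genes of transcriptional control that were tested (8 listed, *Ngly1* not tested), 3 were below 0 and none had an unadjusted p under 0.05. For 5 of the 7, the order over the arrays was that of most subunits (all genes 29.8%). The values ran from −0.81 for *Nfe2l2*, the antioxidant regulator (SE 1.62), to 0.47 for *Maff*, a small partner of both factors (SE 1.56). *Ddi2*, the protease that activates the *Nfe2l1* product, was the gene of this list whose groups did not overlap (0.27, SE 0.30, limma p = 0.391, exact permutation p = 0.10), compared with 8.00% of all genes in either direction. With the mean of its probes, the log2 fold change of *Ddi2* was 0.04.

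Among 13 tested genes of ubiquitin, its activation, shuttles, and the segregase (15 listed, *Uba6* and *Ubqln2* not tested), 7 were below 0, and 2 had an unadjusted p under 0.05, both higher, compared with 3.73% of all genes in either direction. *Ubd*, which encodes a cytokine-inducible ubiquitin-like modifier that targets proteins to the proteasome, had 5.34, 5.10, and 4.40 across controls and 8.90, 7.56, and 9.68 across *ob/ob* arrays. Every *ob/ob* array lay above every control, by a log2 fold change of 3.77 (SE 0.61, limma p = 0.000693, exact permutation p = 0.10, adjusted p = 1.0). *Ubqln1*, a shuttle, had 0.99 (SE 0.37, limma p = 0.0348, exact permutation p = 0.10), and its groups did not overlap either. In all, 3 of the 13 genes did not overlap, 1 of them lower, compared with 8.00% of all genes in either direction. For 8 of the 13 genes of this list, the order over the arrays was that of most subunits (all genes 29.8%).

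Complexes built on a related plan were listed for comparison. Of the 9 genes of the COP9 signalosome, which resembles the lid of the regulatory particle, 2 were below 0, with a median of 0.26. *Cops8* had 6.05, 5.41, and 6.31 across controls and 7.55, 7.96, and 7.23 across *ob/ob* arrays (1.66, SE 0.39, limma p = 0.00500, exact permutation p = 0.10, adjusted p = 1.0) without overlap, and *Cops6* had the lowest value (−0.32, SE 0.62). *Cops8* was the 1 gene of the 9 with an unadjusted p under 0.05, compared with 3.73% of all genes. It was also the 1 gene without overlap, compared with 8.00% of all genes in either direction. For 8 of the 9 genes (88.9%, all genes 29.8%), the exception being *Cops8*, the order over the arrays was that of most subunits. Of the 13 genes of the translation factor eIF3, 10 were below 0 (median −0.15), and 9 (69.2%, all genes 29.8%) had that array order. *Eif3j1* had the lowest value (−1.19, SE 0.42, limma p = 0.0288, exact permutation p = 0.10), and *Eif3m* had the highest (0.56, SE 1.06). The *ob/ob* arrays lay below the controls without overlap for 3 of the 13, *Eif3c*, *Eif3j1*, and *Eif3k*, compared with 8.00% of all genes in either direction. The brightest probes of these genes gave log2 fold changes of −0.79, −1.19, and −0.49. With the mean of a gene's probes, the values were −0.21, −0.39, and −0.40, so those of *Eif3c* and *Eif3j1* depend on the probe.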

How the data were processed

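For each array, the authors deposited the spot intensity from Agilent Feature Extraction (version 11.0.1.1, per the submitters' processing notes), background-subtracted within the array, and a table of log2 values that the authors quantile normalized in GeneSpring. Here, control spots and outlier-flagged spots were dropped, log2 intensities were averaged over each probe's spots, and arrays were quantile normalized. A gene symbol was found for 27234 of the 28684 probes carrying RefSeq accessions. Of all probes, 35448 detected on at least 3 of 6 arrays were tested with limma (3.58.1, R 4.3.3), *ob/ob* minus control, two-sided, with Benjamini-Hochberg adjustment over all probes. The brightest probe stood for a gene. The fit was also run on simulated arrays. Their noise was independent between probes and narrower than the spread of the real arrays. That run therefore does not show how well the fit performs on these data. Tables were made in Python (3.11.15) with numpy (2.4.6) and pandas (2.3.3), and plots with matplotlib (3.10.9).

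The members and gene lists were chosen with earlier results of these data known. Named with values were the catalytic subunits, in each class the 2 largest rises and falls by log2 fold change, members with an unadjusted p under 0.05, without overlap, or with a second probe of opposite sign, the immunoproteasome subunits, *Nfe2l1*, and the largest rise and fall of each related list. Other genes named with values (such as *Psmb2*, *Psmb4*, *Psmd1*, and *Ddi2*) were chosen after their values were seen. The largest fall of 1 related list is not reported here. Groups came from the labels. The same-numbered samples did not deviate together (correlations −0.781, −0.658, and −0.850), so the numbers were not taken as pairs.

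Alternatives were 75th percentile scaling, normexp (offset 50), the authors' values, no filter or detection on all 6 arrays, the mean of a gene's probes, the methods' t-test (unpaired, named for comparisons of 2 groups), the replicate number or the scan as a block, and leaving out arrays. Array signal has no counting error to report, and the number of arrays limits the precision. On each array, 83.5% to 89.9% of spots lay well above background, and the 75th percentile of intensity before normalization ran from 94.5 to 291.8. The median log2 signal of the spike-in control spots, before normalization, was 6.8, 7.1, and 6.19 across controls. Across *ob/ob* arrays it was 6.25, 6.85, and 4.01, so that *ob/ob* 3 lay well below every other array. Whether this difference bears on the results was not tested.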

Additional observations from a re-analysis of the deposited data

How the results depend on the processing

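Leaving out each array in turn gave 10 to 30 members lower in *ob/ob* iBAT and 0 to 2 with an unadjusted limma p under 0.05. Over all 19006 genes tested, 156 to 1958 had an unadjusted p under 0.05 in these fits. For an adjusted p under 0.05, the count was 0 among members and 0 among all genes. Between 2 and 7 members did not overlap between groups. Groups separate more easily with fewer arrays, and the share of all genes without overlap is not reported here for these fits. Medians ran from −0.597 to 0.306 for all members, −0.623 to 0.429 for the core, and −0.597 to 0.306 for the regulatory particle. Core minus regulatory ran from −0.062 to 0.140. The lowest and highest values of the member median came without *ob/ob* 3 and without *ob/ob* 2. Without control 3 and *ob/ob* 3 together, 31 members were lower, 25 passed the unadjusted and 25 the adjusted p (all genes 55.1% and 49.3%), 30 did not overlap (all genes 74.8%), the medians were −1.099, −1.017 (core), and −1.261 (regulatory), and core minus regulatory was 0.245. With the replicate number as a block, 0 members had an unadjusted p under 0.05, since *Psmb3* had an unadjusted value of 0.0627 at the same log2 fold change of −1.35, and no adjusted call was made in either fit. The count was also 0 with 75th percentile scaling and with the scan as a block, a fit of 1 *ob/ob* array against 2 controls that leaves 1 residual degree of freedom. The count without overlap was 1 with the mean of a gene's probes and 1 with the 31 standard subunits, a choice made after seeing the data, because *Psmd10* was lost or not included. Core minus regulatory, −0.014 as reported, was 0.036 with normexp, 0.122 with detection on all 6 arrays, 0.198 with the scan as a block, and 0.229 with the 31 subunits. Scaling to the 75th percentile lowered the median of all genes to −0.299, so that the member median lay 0.33 above it, compared with 0.10 under quantile normalization, and 67.4% of all genes were below 0. Single members changed sign for 3 genes with that scaling, 3 with normexp, 8 with the scan as a block, and 15 without both arrays. *Ubd* kept an unadjusted p under 0.05 in all 16 alternatives, *Cops8* in 15, *Psmb3* in 11, and *Ubqln1* and *Eif3j1* in 8 each. The cause of these shifts was not tested.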
